A study of Arabidopsis thaliana with 6 samples.

Results

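The cysteine-rich receptor-like kinases (CRKs) of Arabidopsis thaliana were examined in shoots of the los2-5 mutant and of the wild type Col-0. The 44 genes CRK1 to CRK43 and CRK45 were taken by their locus identifiers from a count table of 37051 genes, without the CDPK-related kinases, which use the same symbol. All 44 were listed in the table. Of these, 20 form the CRK5-24 array on chromosome 4, 6 the CRK30-35 array, 5 the CRK36-40 array and 2 the CRK28-29 pair, and the other 11 lie outside these groups. Of those 11, CRK25, CRK26, CRK27, CRK41 and CRK45 are also on chromosome 4, and CRK2 and CRK3 are neighbours on chromosome 1.

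A typical CRK is a receptor kinase of the plasma membrane with extracellular DUF26 domains that carry conserved cysteines, a transmembrane helix and an intracellular serine/threonine kinase domain. Many CRK genes are known to respond to salicylic acid, pathogens, ozone and other sources of apoplastic reactive oxygen species, and overexpression of several members raises disease resistance or causes cell death. CRK45, also called ARCK1, is a cytosolic kinase that lacks the extracellular part.

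The study measured messenger RNA by 3′ RNA-seq in 3 libraries of los2-5 and 3 of Col-0. LOS2 encodes a cytosolic enolase of glycolysis, and los2-5 is the only mutant allele of it examined. Each library came from the shoots of 3 pooled plants aged 2 weeks, and the pools of 1 genotype came from different pots. Plants of both genotypes were grown on soil at 22 °C and 60% humidity under constant light (100 µmol m-2 s-1), after 2 days at 4 °C.

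The libraries held 4400433 to 4537653 counts in los2-5 and 3563033 to 4598645 counts in Col-0. On the first principal component the los2-5 libraries lay at -20.8, -38.8 and -40.3 and the Col-0 libraries at 34.5, 29.5 and 35.8, so that los2-5 replicate 1 was the mutant library nearest to Col-0. All 5 leaf markers were tested and 2 of them, RBCS1A and CA1, were lower in los2-5. Flower and seed markers summed to 6, 4 and 2 counts in the los2-5 libraries and to 9, 6 and 4 counts in the Col-0 libraries. Of the root markers, EXPA7 had 0 counts in all libraries, while the root and hypocotyl glucosidase gene PYK10 gave 285, 316 and 215 counts in los2-5 and 180, 267 and 295 counts in Col-0 and was not called. LOS2 itself stood at 120.2, 115.4 and 122.9 CPM (counts scaled to library size) in los2-5 and at 110.4, 123.6 and 106.1 CPM in Col-0, a log2 fold change of 0.08 ± 0.12 (SE; adjusted p = 0.71 by the edgeR quasi-likelihood test). No source used here gives where the allele's lesion lies, so this 3′ tag checks nothing about the genotype. The shoots were measured in bulk, where fewer cells of a type and less RNA per cell cannot be told apart.

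The 250 bases before the annotated start of 5 members are given here from the RefSeq genome and annotation TAIR10.1, found by locus identifier. They are CRK4, CRK6 and CRK45, the members called higher with the smallest adjusted p, CRK5, which lies head to head with CRK6 and has the most W-boxes among the members called higher, and CRK21, the member that was called lower. Each is written 5′ to 3′ on the strand of its gene. Capitals mark W-boxes, the hexamers TTGACC and TTGACT read in either orientation, the kind of element that WRKY transcription factors bind. The windows are chr3:16866262-16866511 (minus strand) for CRK4, chr4:12121119-12121368 (plus) for CRK6, chr4:7147615-7147864 (plus) for CRK45, chr4:12120221-12120470 (minus) for CRK5 and chr4:12180937-12181186 (minus) for CRK21.
CRK4: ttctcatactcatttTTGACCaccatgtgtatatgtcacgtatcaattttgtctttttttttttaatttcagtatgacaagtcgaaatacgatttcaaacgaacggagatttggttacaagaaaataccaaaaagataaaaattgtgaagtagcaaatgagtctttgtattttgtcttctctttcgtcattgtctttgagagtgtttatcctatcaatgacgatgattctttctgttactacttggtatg
CRK6: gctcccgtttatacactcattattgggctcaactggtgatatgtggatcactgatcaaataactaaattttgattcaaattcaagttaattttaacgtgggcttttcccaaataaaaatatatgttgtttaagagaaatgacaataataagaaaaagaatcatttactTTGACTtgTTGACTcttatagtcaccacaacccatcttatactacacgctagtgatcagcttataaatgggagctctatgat
CRK45: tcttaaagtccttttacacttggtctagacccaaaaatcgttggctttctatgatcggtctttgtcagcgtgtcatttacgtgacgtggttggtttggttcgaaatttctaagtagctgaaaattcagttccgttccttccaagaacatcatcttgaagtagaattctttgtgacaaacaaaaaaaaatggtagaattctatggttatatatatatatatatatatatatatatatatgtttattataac
CRK5: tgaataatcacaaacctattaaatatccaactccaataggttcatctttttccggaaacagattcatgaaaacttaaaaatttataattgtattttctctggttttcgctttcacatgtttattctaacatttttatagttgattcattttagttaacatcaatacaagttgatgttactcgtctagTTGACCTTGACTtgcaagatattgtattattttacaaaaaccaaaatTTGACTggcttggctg
CRK21: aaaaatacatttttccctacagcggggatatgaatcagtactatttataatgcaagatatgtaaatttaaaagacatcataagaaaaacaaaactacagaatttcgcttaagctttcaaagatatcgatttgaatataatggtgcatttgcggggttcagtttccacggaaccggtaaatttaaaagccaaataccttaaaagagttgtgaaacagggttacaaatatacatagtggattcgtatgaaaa
Positions of W-boxes are those of the base nearest the gene start, counted back from that start. The window of CRK5 held 3 W-boxes, at 58, 52 and 11 bases, and the first pair of these abut. CRK6 had 2, at 77 and 69 bases, and CRK4 had 1, at 230 bases. The windows of CRK45 and CRK21 held none. The shorter core TGACG, described further with the motif counts, occurred in 2 places for CRK4 and in 1 for CRK45. A match of this kind is a description of letters and not a site of binding.

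Of the CRK genes with enough counts for a test, most were called higher in los2-5, among them CRK4, CRK6, CRK45, CRK7 and CRK36, and CRK21 alone was called lower. Calls rest on an adjusted p no higher than 0.05 in the edgeR quasi-likelihood test, taken over all 13952 genes that passed the count filter. Of the 44 members 22 passed the filter, and of these 15 were called higher, 1 was called lower and 6 were not called. Over all genes tested, 9.92% were called higher (1384) and 10.6% lower (1477). That balance depended on the scaling: library size alone gave 2179 higher and 989 lower, and 15 members higher and 1 lower. For the 22 members the median log2 fold change was 1.55, with CRK37 at its fitted value or at its lower bound. That of all genes tested was 0.02. The median of the members draws in part on those that passed the filter through los2-5 libraries, which are listed below. Of the 15 members called higher, 13 had a log2 fold change of at least 1, a call and size reached by 3.92% of all genes tested, and 9 had one of at least 2. For each of the 16 called members the 3 values of 1 genotype lay wholly above those of the other. The same held for CRK10, so that 16 members were higher without overlap and 1 lower, against 18.7% and 18.6% of all genes tested. Without los2-5 replicate 1, the mutant library nearest to Col-0, 15 members were called higher and 1 lower.

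Part of the family passed the filter with the help of the mutant libraries. It asked for about 2.26 CPM in 3 libraries, in CPM of the unscaled library totals rather than the TMM-scaled CPM given elsewhere. On that unscaled measure, 11 of the 22 tested members (CRK5, CRK7, CRK8, CRK17, CRK18, CRK23, CRK24, CRK28, CRK29, CRK36 and CRK37) were under that level in at least 1 Col-0 library. Members that pass through los2-5 libraries are selected for a rise, and 9 of these 11 were called higher. The other 11 stood above the level in all 3 Col-0 libraries. CRK18 lies at the border, since its TMM-scaled values in Col-0 (2.66, 2.70 and 2.26 CPM) are not under it. Of the 11 above the level in Col-0, 6 were called higher (CRK3, CRK4, CRK6, CRK9, CRK40 and CRK45) and 1 lower (CRK21). The remaining 4 were not called (CRK2, CRK10, CRK22 and CRK41). The log2 fold changes of these 11 members ran from -0.87 (CRK21) to 2.90 (CRK4), with CRK9 in the middle at 0.63. Of the 12253 genes that met the same condition, 8.77% were called higher. Without the filter, 39 members had a count, of which 19 were called higher and 1 lower, against 7.52% higher and 7.63% lower over 22085 genes. Of these 39, 36 had a positive log2 fold change and the median was 1.49, against 0.03 over all genes with a count. Both figures include CRK15, CRK25, CRK26 and CRK31, which had 2 or 3 counts in los2-5 and 0 in Col-0. Their fitted values of 2.57 to 3.07 were set by the prior count and raise the median.

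Summed over the family, the counts came to 324.2, 335.6 and 386.0 CPM in los2-5 and to 188.0, 161.0 and 154.7 CPM in Col-0. The means were 348.6 ± 32.9 CPM in los2-5 and 167.9 ± 17.7 CPM in Col-0 (SD, n = 3 each), a ratio of 2.08. In counts not divided by length, CRK9 contributed 18.6%, 18.4% and 18.3% of the family's total in los2-5 and 31.9%, 19.1% and 22.8% in Col-0, where replicate 1 stood above the other libraries. Without CRK9 the sums were 284.2 ± 27.3 CPM in los2-5 and 125.9 ± 5.74 CPM in Col-0, a ratio of 2.26. At least 1 count was found for 37, 37 and 38 members in the los2-5 libraries and for 32, 30 and 27 members in the Col-0 libraries. Over all genes the same numbers were 19658, 19762 and 19559 in los2-5 and 18997, 19199 and 19652 in Col-0, and the part of depth in the members' numbers was not tested. Among the 15 members called higher, 11 had their highest los2-5 value in replicate 3, 3 in replicate 2 and 1 in replicate 1.

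**Figure D1:**
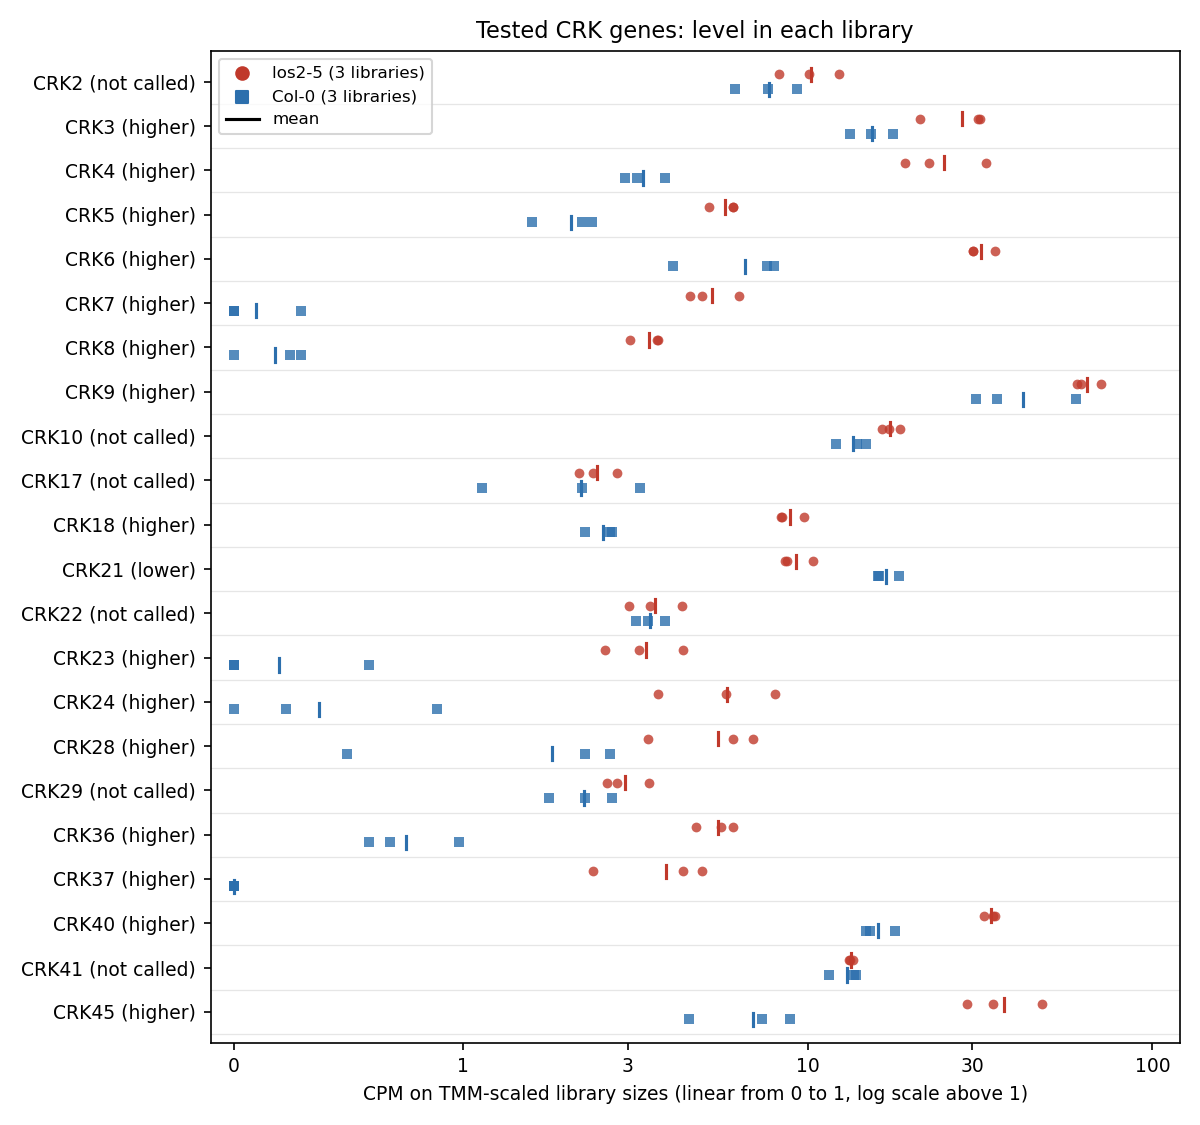
Level of each of the 22 tested CRK genes in every library, in CPM on TMM-scaled library sizes (linear from 0 to 1, log scale above 1), with los2-5 as red circles above Col-0 as blue squares and a bar at the mean of 3 libraries. Red and blue points are apart for the 16 called genes and for CRK10, and CRK21 is the row where the blue points lie to the right.

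The CRK5-24 array is a run of 20 genes, of which 12 were tested, 8 were called higher, 1 was called lower and 3 were not called. Over all genes tested 9.92% were called higher and 10.6% lower. Of the members called higher, CRK5, CRK7, CRK8, CRK18, CRK23 and CRK24 passed the filter through los2-5 libraries and were thus selected for a rise. CRK6 and CRK9 were above the filter level in Col-0. Its summed level was 167.3, 169.3 and 191.3 CPM in los2-5 and 117.5, 87.5 and 82.3 CPM in Col-0. The median log2 fold change of its tested members was 1.65, a value drawn in part from members that passed the filter through los2-5 libraries.

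CRK6 and CRK7 have been linked by mutant studies to the response to extracellular reactive oxygen species, and overexpression of CRK6 to stronger pattern-triggered immunity. CRK6 (AT4G23140) stood at 30.2, 30.1 and 34.95 CPM in los2-5 and at 7.97, 7.62 and 4.07 CPM in Col-0. The lowest mutant library was thus well above the highest wild-type library. The log2 fold change of CRK6 was 2.30 ± 0.22 (SE), with an adjusted p of 2.6e-07 by the edgeR quasi-likelihood test. CRK7 (AT4G23150) was close to absent in the wild type: its level was 4.53, 4.94 and 6.30 CPM in los2-5 and 0.295, 0 and 0 CPM in Col-0. The pooled counts of CRK7 were 73 in los2-5 and 1 in Col-0, a ratio of 62.4 (exact 95% interval 10.9 to 2499; adjusted p = 3.7e-06 by edgeR). The single wild-type count of CRK7 was in Col-0 replicate 1, and without that library its fitted log2 fold change was 7.56 rather than 5.54, a value set by the prior count because the other Col-0 libraries had none.

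CRK5 (AT4G23130), a member whose overexpression is known to raise resistance to bacteria, lies head to head with CRK6. It had 6.04, 5.16 and 6.08 CPM in los2-5 and 2.36, 2.21 and 1.58 CPM in Col-0, with no overlap. The log2 fold change of CRK5 was 1.49 ± 0.33 (adjusted p = 0.0022 by edgeR). CRK8 (AT4G23160), next to CRK7, was again barely detected in the wild type, with 3.67, 3.65 and 3.04 CPM in los2-5 and 0.295, 0.246 and 0 CPM in Col-0. Its pooled counts were 48 in los2-5 and 2 in Col-0, a ratio of 20.5 (exact 95% interval 5.38 to 174; adjusted p = 6.7e-05 by edgeR). Without Col-0 replicate 3, which had no count of CRK8, its fitted log2 fold change was 3.54 rather than 4.14. Of the 50-base words in the last 500 bases of the CRK8 transcript, 9.98% also occur in CRK6, so a part of its 3′ reads could be shared with that gene.

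CRK9 and CRK10 come next on the same strand, and their changes were small. CRK9 (AT4G23170), annotated as EP1, has a product described as a receptor-like protein kinase-related family protein. The gene has a coding length of 798 bases, the shortest among the protein-coding members. Its level was 60.4, 61.9 and 70.8 CPM in los2-5 and 59.9, 30.7 and 35.3 CPM in Col-0. Col-0 replicate 1 lay just under the lowest mutant library, and the other wild-type libraries were far below. CRK9 was called higher with a log2 fold change of 0.63 ± 0.20 (adjusted p = 0.031 by edgeR). The call was lost without los2-5 replicate 2 (adjusted p = 0.072), los2-5 replicate 3 (0.11), Col-0 replicate 2 (0.13) or Col-0 replicate 3 (0.15), and the estimate stood at 0.96 without Col-0 replicate 1. CRK10 (AT4G23180) stood at 16.4, 18.5 and 17.2 CPM in los2-5 and at 13.9, 12 and 14.7 CPM in Col-0. These groups do not overlap, yet CRK10 was not called, with a log2 fold change of 0.36 ± 0.18 (adjusted p = 0.17 by edgeR). The gene overlaps CRK11 tail to tail by 32 bases on the opposite strand, and no source used here gives the strand setting of the counts.

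The far end of the array held both the member that fell and further members close to absent in Col-0. CRK21 (AT4G23290) had 10.4, 8.59 and 8.68 CPM in los2-5 and 15.9, 18.4 and 16.1 CPM in Col-0, so that every mutant library was below every wild-type library. The means were 9.21 ± 0.996 CPM in los2-5 and 16.8 ± 1.41 CPM in Col-0 (SD, n = 3 each). The log2 fold change of CRK21 was -0.87 ± 0.19 (adjusted p = 0.0027 by edgeR), and it was called lower under all 13 alternative settings. Its head-to-head neighbour CRK22 (AT4G23300) had 3.02, 4.30 and 3.47 CPM in los2-5 and 3.84, 3.44 and 3.17 CPM in Col-0. These groups overlap, and the log2 fold change of CRK22 was 0.06 ± 0.32 (adjusted p = 0.92 by edgeR).

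CRK23 and CRK24, which lie tail to tail 127 bases apart beside CRK22, were both called higher. CRK23 (AT4G23310) had 3.24, 2.58 and 4.34 CPM in los2-5 and 0.590, 0 and 0 CPM in Col-0, which is 47 pooled counts in los2-5 against 2 in Col-0. The ratio was 20.1 (exact 95% interval 5.26 to 171; adjusted p = 2.2e-04 by edgeR). CRK24 (AT4G23320) had 3.67, 5.80 and 8.03 CPM in los2-5 and 0.885, 0 and 0.226 CPM in Col-0, with a log2 fold change of 4.00 ± 0.58 (adjusted p = 3.5e-05 by edgeR). Both of the CRK23 counts and 3 of the 4 CRK24 counts of the wild type were in Col-0 replicate 1. Without that library the fitted log2 fold changes were 6.93 rather than 4.11 for CRK23 and 5.33 rather than 4.00 for CRK24, and without Col-0 replicate 3 that of CRK23 was 3.51. The first of these rests on the prior count, since no wild-type count of CRK23 was then left.

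CRK18 (AT4G23260) had 8.42, 8.38 and 9.77 CPM in los2-5 and 2.66, 2.70 and 2.26 CPM in Col-0. Its libraries were tight in both genotypes and far apart between them, with a log2 fold change of 1.80 ± 0.28 (adjusted p = 8.7e-05 by edgeR). The neighbouring CRK17 (AT4G23250), annotated as EMB1290 after an embryo-defective mutant, had 2.38, 2.79 and 2.17 CPM in los2-5 and 3.25, 2.21 and 1.13 CPM in Col-0. Here the wild-type libraries spread on both sides of the mutant ones, and the log2 fold change was 0.21 ± 0.41 (adjusted p = 0.77 by edgeR). CRK17 overlaps CRK16 by 1190 bases on the same strand, so reads of these neighbours may not be separated.

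The other 8 genes of the array were below the filter and summed to 204 counts in los2-5 and 68 in Col-0. CRK13, whose overexpression is known to cause cell death and to raise salicylic acid, had 20, 7 and 24 counts in los2-5 and 1, 3 and 3 counts in Col-0. Its pooled ratio, corrected for library size, was 6.23 (exact 95% interval 2.82 to 16.3). For CRK14 the ratio was 6.63 (2.34 to 25.8), from 31 counts in los2-5 and 4 in Col-0. The ozone- and pathogen-responsive CRK11 had 34 counts in los2-5 and 10 in Col-0, a ratio of 2.91 (1.40 to 6.60), and CRK16 had 32 counts in los2-5 and 14 in Col-0, a ratio of 1.96 (1.01 to 3.96). For CRK12 the interval of 0.955 to 5.86 included 1, as did that of CRK19 (0.604 to 1.91), which had 30 counts in los2-5 and 24 in Col-0. CRK15 and CRK20 had 3 counts or fewer in each genotype and are given no ratio. These intervals cover counting error alone. In the fit without a filter CRK11, CRK13 and CRK14 were called higher, with adjusted p of 0.036, 2.3e-05 and 0.0014 by edgeR. CRK16 was not called there (0.22 by edgeR). Adjusted p of that fit are not on the scale of the main fit: CRK4 had 3.8e-29 in it, against 1.1e-07 in the main fit (both by edgeR).

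**Figure D2:**
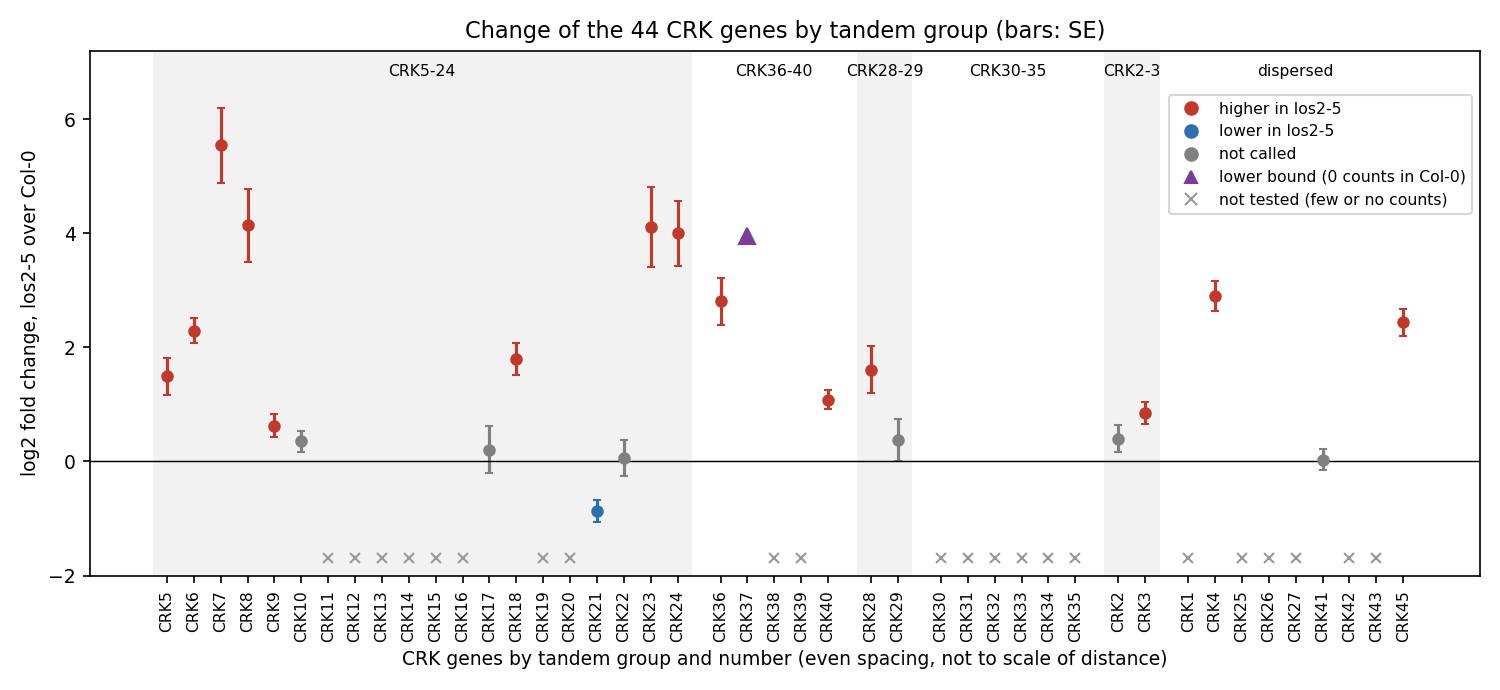
Log2 fold change of the CRK genes, los2-5 over Col-0, with SE bars, arranged by tandem group and gene number at even spacing; the triangle is the lower bound of CRK37 and crosses at the bottom mark the 22 members that were not tested. Red points of the CRK5-24 array reach their peak at CRK7 and are interrupted by grey points and by CRK21 at -0.87.

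All 3 tested members of the CRK36-40 array were called higher, against 9.92% of all genes tested. CRK36 and CRK37 passed the filter through los2-5 libraries and were thus selected for a rise, while CRK40 was above the filter level in Col-0. The array is therefore described without a test. Its summed level was 44.5, 47.1 and 45.8 CPM in los2-5 and 15.6, 20.2 and 15.8 CPM in Col-0. CRK36 (AT4G04490), which is known to bind ARCK1 in abscisic acid and osmotic stress signalling and to raise pattern-triggered immunity when overexpressed, had 5.61, 4.73 and 6.08 CPM in los2-5 and 0.590, 0.983 and 0.678 CPM in Col-0. Even the lowest mutant library was several times the highest wild-type one, and the log2 fold change was 2.81 ± 0.41 (adjusted p = 3.5e-05 by edgeR). CRK37 (AT4G04500), head to head with CRK36, had 2.38, 4.94 and 4.34 CPM in los2-5 and 0 counts in every Col-0 library. With 54 counts in los2-5 it was at least 15.4-fold higher there, against a floor of 3 counts over the Col-0 libraries (adjusted p = 2.4e-05 by edgeR). CRK40 (AT4G04570) had 34.5, 34.8 and 32.4 CPM in los2-5 and 14.8, 17.9 and 15.2 CPM in Col-0. The groups of CRK40 were clearly apart, with a log2 fold change of 1.08 ± 0.16 (adjusted p = 6.1e-05 by edgeR).

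CRK38 and CRK39 of this array were below the filter. CRK39 had 7, 9 and 12 counts in los2-5 and 0, 3 and 0 counts in Col-0, a ratio of 7.98 (exact 95% interval 2.47 to 41), and it was called higher in the fit without a filter (adjusted p = 0.0015 by edgeR). CRK38 had 7 counts in los2-5 and 3 in Col-0, and its interval of 0.456 to 12 included 1. The 3′ ends of CRK39 and CRK40 match at 94.1% of 256 aligned bases, and 5.32% of the 50-base words of CRK39 also occur in CRK40, so that the counting could divide reads between them. For 37 of the 44 members no such word was found elsewhere in the genome.

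The CRK28-29 pair was split, and both of its members passed the filter through los2-5 libraries. CRK28 (AT4G21400), a kinase reported to associate with BAK1 and to cause cell death when overexpressed, had 6.04, 3.44 and 6.95 CPM in los2-5 and 2.66, 0.492 and 2.26 CPM in Col-0. All mutant libraries were above all wild-type ones, with a log2 fold change of 1.61 ± 0.42 (adjusted p = 0.0083 by edgeR). Without Col-0 replicate 2, the library with the lowest value, the log2 fold change was 1.15 and the adjusted p 0.053. CRK29 (AT4G21410) had 3.45, 2.79 and 2.61 CPM in los2-5 and 1.77, 2.70 and 2.26 CPM in Col-0. These groups overlap, and CRK29 was not called (log2 fold change 0.38 ± 0.37, adjusted p = 0.50 by edgeR). The annotated genes overlap by 470 bases on the same strand, so their reads may not be separated.

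The CRK30-35 array was almost silent in both genotypes. Its 6 genes gave 13 counts in los2-5 and 7 in Col-0 in total, and none was tested. CRK32, CRK33 and the transcribed pseudogene CRK35 had no count in any library. CRK34 had 7 counts in los2-5 and 4 in Col-0, a ratio of 1.5 (exact 95% interval 0.380 to 6.97). CRK30 and CRK31 had 3 counts or fewer in each genotype. A count of 0 over 3 libraries allows a level of up to 0.216 CPM in los2-5 and 0.253 CPM in Col-0, so the depth leaves low expression undetectable. CRK1 and CRK27, outside the arrays, also had no counts.

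Outside the chromosome 4 groups, 5 of 11 members were tested and CRK4, CRK45 and CRK3 were called higher. Their summed level was 102.3, 111.9 and 138.3 CPM in los2-5 and 50.2, 49.4 and 51.3 CPM in Col-0. CRK4 (AT3G45860), on chromosome 3, is known to raise pattern-triggered immunity when overexpressed and had the smallest adjusted p of the family. It had 22.5, 19.1 and 32.8 CPM in los2-5 and 3.84, 3.20 and 2.94 CPM in Col-0. The mutant libraries spread more widely than the wild-type ones but stayed far above them, with a log2 fold change of 2.90 ± 0.26 (adjusted p = 1.1e-07 by edgeR). CRK45 (ARCK1, AT4G11890) had 28.9, 34.4 and 47.8 CPM in los2-5 and 8.85, 7.37 and 4.52 CPM in Col-0. Replicate 3 was the highest library in los2-5 and the lowest in Col-0, and the groups did not overlap (log2 fold change 2.44 ± 0.24, adjusted p = 5.5e-07 by edgeR). ARCK1 overlaps AT4G11900 on the opposite strand, a gene that was not called (-0.11 ± 0.38, adjusted p = 0.86 by edgeR).

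The chromosome 1 neighbours CRK2 and CRK3 differed in their calls. CRK3 (AT1G70530) had 21.2, 31.6 and 31.3 CPM in los2-5 and 13.3, 15.2 and 17.6 CPM in Col-0. Its groups were apart, with los2-5 replicate 1 nearest to the wild type, and the log2 fold change was 0.85 ± 0.19 (adjusted p = 0.0025 by edgeR). CRK2 (AT1G70520), known for its role in salt tolerance, callose deposition and phosphorylation of the NADPH oxidase RBOHD, had 12.3, 10.1 and 8.25 CPM in los2-5 and 7.67, 6.14 and 9.27 CPM in Col-0. These groups overlap and CRK2 was not called (0.40 ± 0.24, adjusted p = 0.24 by edgeR). CRK41 (AT4G00970) had 13.2, 13.5 and 13.2 CPM in los2-5 and 11.5, 13.8 and 13.6 CPM in Col-0, with a log2 fold change of 0.03 ± 0.19 (adjusted p = 0.92 by edgeR). Among the untested members, CRK42 had 27 counts in los2-5 and 21 in Col-0, a ratio of 1.10 (exact 95% interval 0.599 to 2.05), and CRK43 had 27 counts in los2-5 and 26 in Col-0, a ratio of 0.888 (0.499 to 1.58). CRK25 and CRK26 had 2 counts each in los2-5 and none in Col-0.

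**Figure D3:**
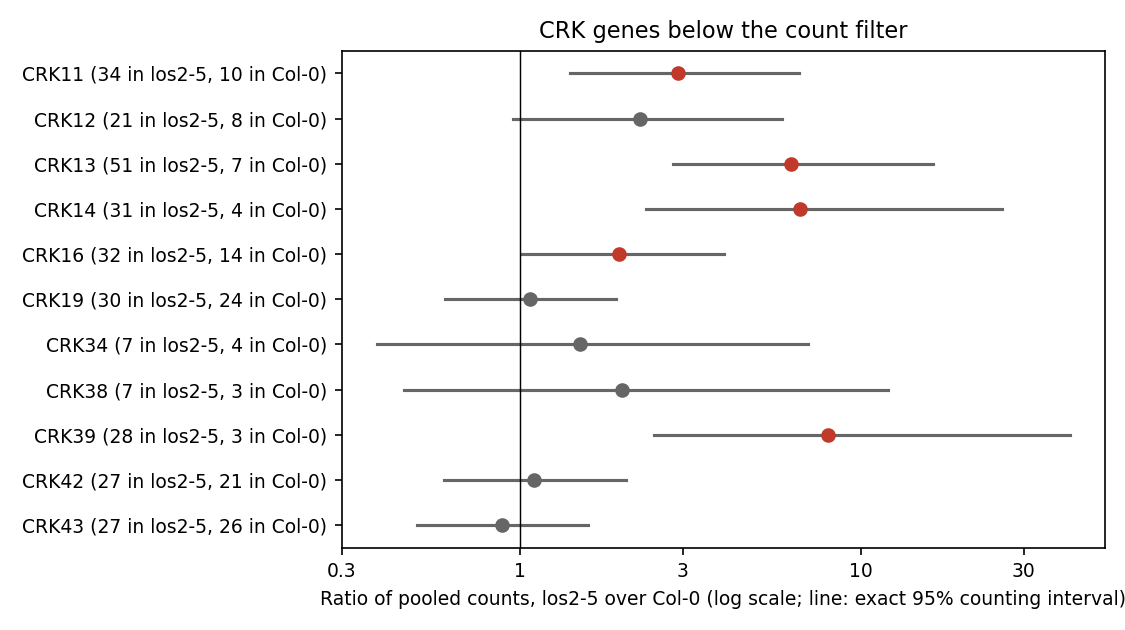
Ratio of pooled counts, los2-5 over Col-0 and corrected for library size, on a log scale for the 11 members below the filter with more than 3 counts in a genotype; lines are exact 95% intervals for counting error and the counts stand beside each name. The 5 red points (CRK11, CRK13, CRK14, CRK16 and CRK39) have intervals above 1, and the other 6 intervals include 1. Of these 5, CRK16 was not called in the fit without a filter.

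By position, 12 of the 17 tested members of the chromosome 4 groups were called higher, with a median log2 fold change of 1.61, and 3 of the 5 tested members outside them, with a median of 0.85. The share called higher over all genes tested was 9.92%. Every tested member under the filter level in a Col-0 library lies in the chromosome 4 groups, where alone the filter selected for a rise. Of the other tested members in the groups, CRK6, CRK9 and CRK40 were called higher, CRK10 and CRK22 not called and CRK21 lower. Outside the groups, CRK3, CRK4 and CRK45 were called higher and CRK2 and CRK41 not called. For this reason, and with so few genes outside the groups, these are descriptions, and the difference was not tested. Neighbouring members often differed in their call. Of 30 pairs of adjacent members 23 lie on the same strand, 4 head to head and 3 tail to tail. Of the head-to-head pairs, CRK5 and CRK6 (1148 bases between their starts) and CRK36 and CRK37 (3680 bases) were called higher together. In the pair CRK18 and CRK19 (874 bases) CRK18 was called higher and CRK19 had a count ratio of 1.07, and in the pair CRK21 and CRK22 (688 bases) CRK21 was called lower and CRK22 not called. From CRK6 along the same strand to CRK10 the log2 fold changes were 2.30 for CRK6, 0.63 for CRK9 and 0.36 for CRK10, with CRK7 and CRK8, at count ratios of 62.4 and 20.5, in between.

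Few loci in and around the 4 groups that are not members had enough counts for a test. The 55 loci that lie inside the groups or are among the 5 nearest on each side included 7 tested genes, of which 1 was higher and 1 lower. Over all genes tested 9.92% were called higher and 10.6% lower. The receptor kinase gene RK3, beside CRK28-29, had 6.04, 7.95 and 8.47 CPM in los2-5 and 4.13, 1.97 and 5.20 CPM in Col-0 (log2 fold change 0.98 ± 0.31, adjusted p = 0.026 by edgeR). Its groups did not overlap. GSH1, the first enzyme gene of glutathione synthesis, lies near CRK5 and had 30.4, 28.4 and 21.5 CPM in los2-5 and 48.7, 35.4 and 46.8 CPM in Col-0 (-0.70 ± 0.17, adjusted p = 0.0045 by edgeR), again with no overlap.

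Partners of CRK signalling and genes of the apoplastic oxidative burst were examined beside the family. For reference, the shares called over all genes tested were 9.92% higher and 10.6% lower. Of 20 genes for CRK partners and apoplastic reactive oxygen species 16 were tested, 9 were called higher and 0 lower, with a median log2 fold change of 0.60. At an unadjusted p under 0.05 edgeR gave 9 higher and 0 lower, and DESeq2 also called 0 lower. The count of 9 was 5 with the DESeq2 Wald test, and it was 5 without los2-5 replicate 3, Col-0 replicate 1 or Col-0 replicate 2 and 4 without Col-0 replicate 3. The apoplastic peroxidase gene PRXCB had 161.0, 188.2 and 185.0 CPM in los2-5 and 84.7, 66.8 and 78.5 CPM in Col-0, with no overlap and a log2 fold change of 1.22 ± 0.13 (adjusted p = 1.1e-06 by edgeR). CALS1, a callose synthase gene, had 14.5, 17.8 and 15.9 CPM in los2-5 and 7.38, 9.09 and 6.78 CPM in Col-0, with no overlap (1.05 ± 0.21, adjusted p = 9.3e-04 by edgeR). PLDALPHA1, the phospholipase D gene linked to CRK2, and CERK1, the chitin receptor kinase gene, were called higher by 0.59 ± 0.14 (adjusted p = 0.0043 by edgeR) and 0.60 ± 0.15 (adjusted p = 0.0072 by edgeR). Chosen after their values were seen, BAK1, the co-receptor kinase gene, was not called (0.13 ± 0.16, adjusted p = 0.60 by edgeR), and RBOHD had only 13 counts in los2-5 and 16 in Col-0 and was not tested.

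All 13 tested genes of a list of 14 salicylic acid regulators and pathogenesis-related genes were called higher, with a median log2 fold change of 2.03. WRKY46, a transcription factor gene, stood at 3.09 ± 0.23 (adjusted p = 6.9e-09 by edgeR). The number called higher was 11 with a replicate block, and 12 without los2-5 replicate 3, Col-0 replicate 1 or Col-0 replicate 3. That list was chosen with its rise in these libraries already known. It includes the pathogenesis-related genes PR1, BGL2 and PR5, which stood at 587.9, 478.7 and 220.6 CPM in los2-5 replicate 3. Its summed level was 1240, 1278 and 1972 CPM in los2-5 and 337.0, 291.7 and 218.7 CPM in Col-0, so that los2-5 replicate 3, where 11 of the CRK genes called higher had their mutant maximum, was the highest library here as well. The part of one in the other was not tested. In the lists of cysteine-rich repeat secretory and plasmodesmata-located proteins, which have DUF26 domains but no kinase, most genes were too low to test. The first of these lists was taken by annotated product, so relatives under other names are not in it. Of the 28 cysteine-rich repeat secretory protein genes 27 had no counts, the whole list had 2 counts, both in Col-0, and 0 were tested. Of 8 genes for plasmodesmata-located proteins 3 were tested and 0 called by edgeR, also 0 at an unadjusted p under 0.05, and 0 by DESeq2. HWI1, which encodes PDLP5, was not tested, with 10, 12 and 21 counts in los2-5 and 1, 6 and 5 counts in Col-0, a ratio of 3.06 (exact 95% interval 1.59 to 6.38) with no overlap. In the fit without a filter 1 gene of this list was called higher. Of 6 senescence markers 4 were tested and 0 were called by edgeR, with 1 higher and 2 lower at an unadjusted p under 0.05 and 1 higher by DESeq2. SAG12 had no counts, and SAG13 had a log2 fold change of 3.03 ± 0.89 (adjusted p = 0.088 by edgeR). Its levels were 22.7, 19.1 and 51.9 CPM in los2-5 and 0.590, 1.47 and 8.59 CPM in Col-0, with no overlap and with replicate 3 the highest in both genotypes. The log2 fold changes of the other tested markers were -1.07 ± 0.39 for NAC6, -0.55 ± 0.31 for NAP and -0.89 ± 0.34 for SEN1.

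W-boxes were common upstream of CRK genes whether or not the gene was called. Among the 43 protein-coding members 26 windows of 250 bases (60.5%) held TTGACC or TTGACT on either strand, against 28.4% of the 27443 protein-coding genes of the table and 35.6% of the 1365 protein-coding genes that were called higher. The share was 66.7% for the 15 CRK genes called higher, 42.9% for the 7 tested and not called higher and 61.9% for the 21 not tested. A pair of W-boxes or more stood upstream of 11 members (25.6%), against 6.18% of protein-coding genes. The CRK5-24 array held 26 matches in 13 of its 20 windows, the highest number being 4 for CRK11. Windows were taken without regard to neighbouring genes. That of CRK16, with 2 W-boxes, lies within the overlapping gene CRK17, and that of CRK28 lies within CRK29. The pentamer TGACG, the core that TGA factors bind, was found upstream of 14 members (32.6%), against 18.6% of protein-coding genes. It occurred in 53.3% of the CRK windows of genes called higher, 28.6% of those tested and not called higher and 19% of those not tested. A W-box and a TGACG match cannot use the same TGAC, although they may share bases at their ends. The array genes arose by duplication, so their windows are not independent, and these shares are descriptions with no test.

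**Figure D4:**
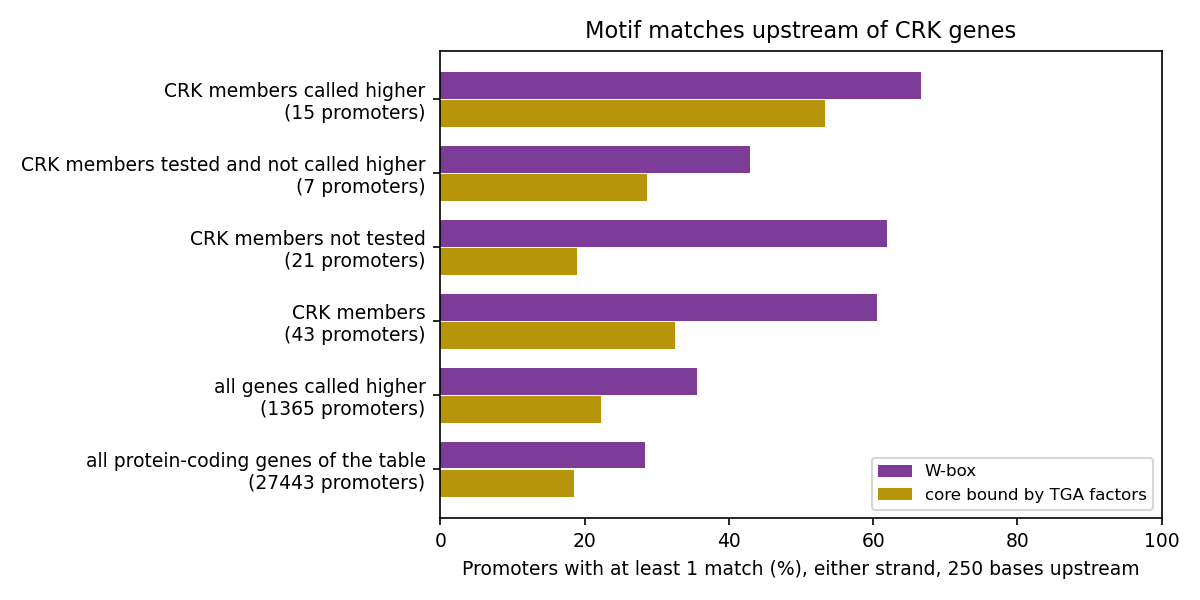
Share of upstream windows of 250 bases with at least 1 match on either strand, in percent, for CRK genes by their call and for the protein-coding genes of the table; purple bars stand for the W-box and ochre bars for the core bound by TGA factors, with the number of windows beside each set. Purple bars of the CRK sets lie between 42.9% and 66.7%, above the 28.4% of protein-coding genes. Ochre bars of the CRK sets run from 19% to 53.3%, against 18.6% of protein-coding genes.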

How the data were processed

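Shoots of los2-5 and Col-0 were compared with 3 libraries each, and each pool of 3 plants was counted as 1 sample. P-values measure the spread between these pools, which per the labels came from different pots. The deposited table holds raw read counts for 37051 genes, which entered the tests unchanged. The tools STAR and edgeR and the build TAIR10 are named in the submitters' processing notes. No source used here gives the counting tool, annotation or strand setting, and reads of near-identical or overlapping members may not be separated. All columns matched 1 sample each.

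Genes were kept by filterByExpr (minimum count 10, total 15), which left 13952 genes with 99.5% of the counts. After TMM scaling, the quasi-likelihood test of edgeR 4.0.16 was run in R 4.3.3 (robust = TRUE) on genotype alone, with Benjamini-Hochberg adjustment over all genes kept. The common dispersion was 0.0155. Fold changes are los2-5 over Col-0, each SE was computed from the fold change and the square root of its F statistic, and CPM use TMM-scaled library sizes without division by gene length, so levels are compared only within a gene. Folds against 0 counts use a floor of 3 counts over the group, and ratios of pooled counts carry exact conditional binomial 95% intervals, which cover counting error alone. The procedure was tested on simulated data.

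All 44 members are named or counted, and any tested member may be named. From the other lists, up to 4 called genes with the smallest p could be named, from the flanking loci those called, and LOS2. The uncalled or untested genes named beside them (EXPA7, PYK10, HWI1, the senescence markers, BAK1, RBOHD and AT4G11900) were picked with their values in view. The members, the gene lists and the tests were chosen with earlier results of these data known. Gene order, overlaps, transcript 3′ ends and upstream windows of 250 bases were read by locus identifier from the RefSeq genome and annotation TAIR10.1, whose name differs from the authors' build. Similar 3′ ends were compared with BLAST 2.17.0 over the last 500 bases. Alternatives were library size alone, DESeq2 size factors, no filter, a filter of 1 CPM in 3 libraries, DESeq2 1.42.0, limma-voom (limma 3.58.1), a replicate block and each library left out in turn.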

Additional observations from a re-analysis of the deposited data

How the results depend on the processing

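Across 13 alternatives the members called higher numbered 13 to 19 (13 to 15 with 1 library left out) and the members called lower 1. Of 208 repeats for the 16 called members 203 kept the direction and the call, and 14 members were called in every repeat. The exceptions were CRK9, with log2 fold changes of 0.66, 0.56, 0.44 and 0.51 without los2-5 replicate 2, los2-5 replicate 3, Col-0 replicate 2 or Col-0 replicate 3, and CRK28, at 1.15 without Col-0 replicate 2, a library whose removal left 0 calls in the CRK28-29 pair (0 to 1 with 1 library left out). Values near 0 turned sign: CRK17 to -0.15 without Col-0 replicate 3 (-0.15 to 0.55 with 1 library left out), CRK22 to -0.09 without los2-5 replicate 2 and to -0.02 without Col-0 replicate 3 (-0.09 to 0.17), and CRK41 to -0.042 without Col-0 replicate 1 (-0.042 to 0.072). The cause was not tested.

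Over all genes, library size alone gave 2179 higher and 989 lower, with fold changes shifted by a median of 0.12 (log2), and leaving out 1 library gave 810 to 1504 higher and 929 to 1570 lower. The partner genes called higher numbered 5 with DESeq2 and 4 to 8 with 1 library left out. Among plasmodesmata-located protein genes 1 was called higher with no filter and 1 with the filter of 1 CPM. Among senescence markers 1 was called higher with DESeq2, 1 with limma-voom, and 0 to 1 with 1 library left out. Of the same markers 2 were called lower with no filter, 1 with limma-voom, and 0 to 1 with 1 library left out.

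Libraries with the same replicate number did not deviate together (correlations 0.0509, -0.000684 and -0.048), and not every library correlated best with its own number, so they were not taken as pairs. With the replicate block 1517 genes were called higher, against 1384 without it, and 15 members were called higher and 1 lower. Of the list of salicylic acid regulators and pathogenesis-related genes 11 were called higher, and of the senescence markers 1 higher and 2 lower. Counts below the filter limit what can be said of 22 members.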
